A study of Mus musculus with 18 samples.

Results

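The genes of the NF-κB subunits and of the IκB proteins that hold them in check were examined in RNA sequencing of thymocytes that had just passed positive selection. They were chosen by name and found by their Entrez Gene ID, 10 genes among the 27179 counted, and all 10 passed the filter on low counts that left 12798 genes. These were *Nfkb1*, *Nfkb2*, *Rel*, *Rela* and *Relb* for the subunits, *Nfkbia*, *Nfkbib* and *Nfkbie* for the classical inhibitors, and *Nfkbid* and *Bcl3* for the atypical IκB proteins. CD69+ cells were sorted by low or high MHC I, which gave 2 samples per mouse and 18 in all, from 9 mice that were not pooled. Of these mice 3 were WT, 3 were *Hoil*ΔCd4 and 3 were *Sharpin* cpdm. CD69 appears on thymocytes once their antigen receptor has been engaged, and surface MHC I increases with maturation, so cells with high MHC I stand further along. The *Hoil*ΔCd4 genotype combines loxP-flanked *Rbck1*, the gene of HOIL-1, with *Cd4*Cre, which acts in T-lineage cells from the CD4+CD8+ double-positive stage on. *Sharpin* cpdm mice lack SHARPIN in every cell, come to develop inflammation of several organs, and were backcrossed from C57BL/Ka to C57BL/6 only 2 times, so the mutation and the remaining C57BL/Ka genome cannot be told apart. The *Sharpin* cpdm mice were studied at a time when skin disease was not yet extensive. The age of these mice is not given in the sources used here.

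HOIL-1 and SHARPIN are parts of the linear ubiquitin chain assembly complex (LUBAC), whose linear chains help the IκB kinase (IKK) to act downstream of TNF and antigen receptors. In resting cells the classical IκB proteins keep dimers of the subunits in the cytoplasm, and IKK marks these inhibitors for destruction, so that the dimers reach the nucleus. The dimers then raise transcription of several of their own genes, above all *Nfkbia*, which ends the response. *Nfkb2* and *Relb* also serve the alternative pathway, in which the kinase NIK has the p100 precursor trimmed to p52, a pathway known for its role in medullary thymic epithelium.

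Between 10577966 and 16266128 reads per sample fell on genes. *Rbck1* was at 217 to 268 CPM (read counts scaled to the library's total, with TMM factors) in WT samples, at 0.271 to 0.778 CPM in *Hoil*ΔCd4 MHC I low and at 3.72 to 8.94 CPM in *Hoil*ΔCd4 MHC I high samples. The cpdm mutation leaves the *Sharpin* transcript, at 66.4 to 77.9 CPM against 85.9 to 97.3 CPM in WT. *Xist* was at 3197 to 4287 CPM in all 3 WT mice, *Hoil*ΔCd4 mouse 3 and *Sharpin* cpdm mouse 2 had it at 3644 to 4471 CPM, and the other 4 mutant mice had at most 64.6 CPM, so WT was of one sex and each mutant group of both. The markers of αβ thymocytes summed to at least 2995 CPM in every sample. Other cell types were close to absent, since the 6 B-cell markers summed to 3.41 to 6.04 CPM, the 7 myeloid and dendritic markers to 2.09 to 9.22 CPM and the 6 thymic epithelial markers to 6.03 to 11.9 CPM, with *Pax5* and *Foxn1* at most at 0.0676 CPM.

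Windows of 300 bases around the starts of these genes were searched for the κB consensus, the letters the subunits' dimers bind, on both strands, as a description of sequence only. RefSeq promoter windows (GRCm38.p6, 250 bases before to 50 after a start) were at hand for 8 of the 10 genes, not for *Nfkb1* and *Relb*. The consensus occurred in a window of 6 of these 8, namely *Nfkb2*, *Rel*, *Nfkbia*, *Nfkbie*, *Nfkbid* and *Bcl3*. It was found for 5.14% of all 27025 genes with a window, and in 4.51% of all windows against 8 of the 12 windows of these genes. Windows of the same gene can overlap and are not independent. The same GGGACTTTCC of *Nfkb2* was counted at base 11 for a start and at base −225 for the next. *Rela* and *Nfkbib* held no match, which says only that these letters are not in the window. The 120 bases just before the start are shown for 3 genes that carry a match there and overlap at most 1 base of an annotated exon, with the match in capitals, 5′ to 3′ along the gene.
*Nfkbia* (chr12:55492648-55492767, minus strand): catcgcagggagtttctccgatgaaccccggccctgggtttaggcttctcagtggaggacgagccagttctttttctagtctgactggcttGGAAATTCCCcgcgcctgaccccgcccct
*Rel* (chr11:23770970-23771089, minus strand): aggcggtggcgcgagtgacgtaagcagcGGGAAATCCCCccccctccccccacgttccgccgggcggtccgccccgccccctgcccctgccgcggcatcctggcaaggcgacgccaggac
*Nfkbie* (chr17:45555580-45555699, plus strand): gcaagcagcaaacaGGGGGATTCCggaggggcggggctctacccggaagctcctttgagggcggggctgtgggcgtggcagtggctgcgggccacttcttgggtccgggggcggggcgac
The match began 29 bases before the start in *Nfkbia*, 92 before it in *Rel*, where matches on either strand overlap, and 106 before it in *Nfkbie*. In *Nfkb2* a start within the gene had GGGAATTCCC at 39 bases and GGGGCTTTCC at 11 bases before it. In *Bcl3* the match GGGAAGTCCC lay just after the start, at base 3.

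Per kb of gene length (RPKM, from the same scaled counts), the most abundant of the 10 transcripts in WT MHC I low cells were *Nfkbia* at 125 ± 8.78 (SD, n = 3), *Nfkb1* at 123 ± 7.26 and *Nfkbid* at 122 ± 4.75 RPKM, whose ranges overlapped. The other subunits followed without overlap between neighbours, from *Nfkb2* at 63.7 ± 2.65 through *Relb* at 51.4 ± 2.42 and *Rela* at 43.5 ± 2.20 to *Rel* at 33.6 ± 2.49 RPKM. *Nfkbib*, *Nfkbie* and *Bcl3* were the least abundant, at 20.8 ± 2.27, 16.9 ± 1.61 and 2.28 ± 0.567 RPKM. Among MHC I high cells *Nfkbia* and *Nfkb1* still led at 128 ± 1.76 and 105 ± 8.07 RPKM, *Nfkbid* had less at 59.8 ± 1.49 RPKM, and *Bcl3* stood seventh at 32.6 ± 0.829 RPKM. The precision behind these levels comes from 303 to 7944 counts per sample for every gene but *Bcl3*, which had 30 to 996.

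**Figure D1:**
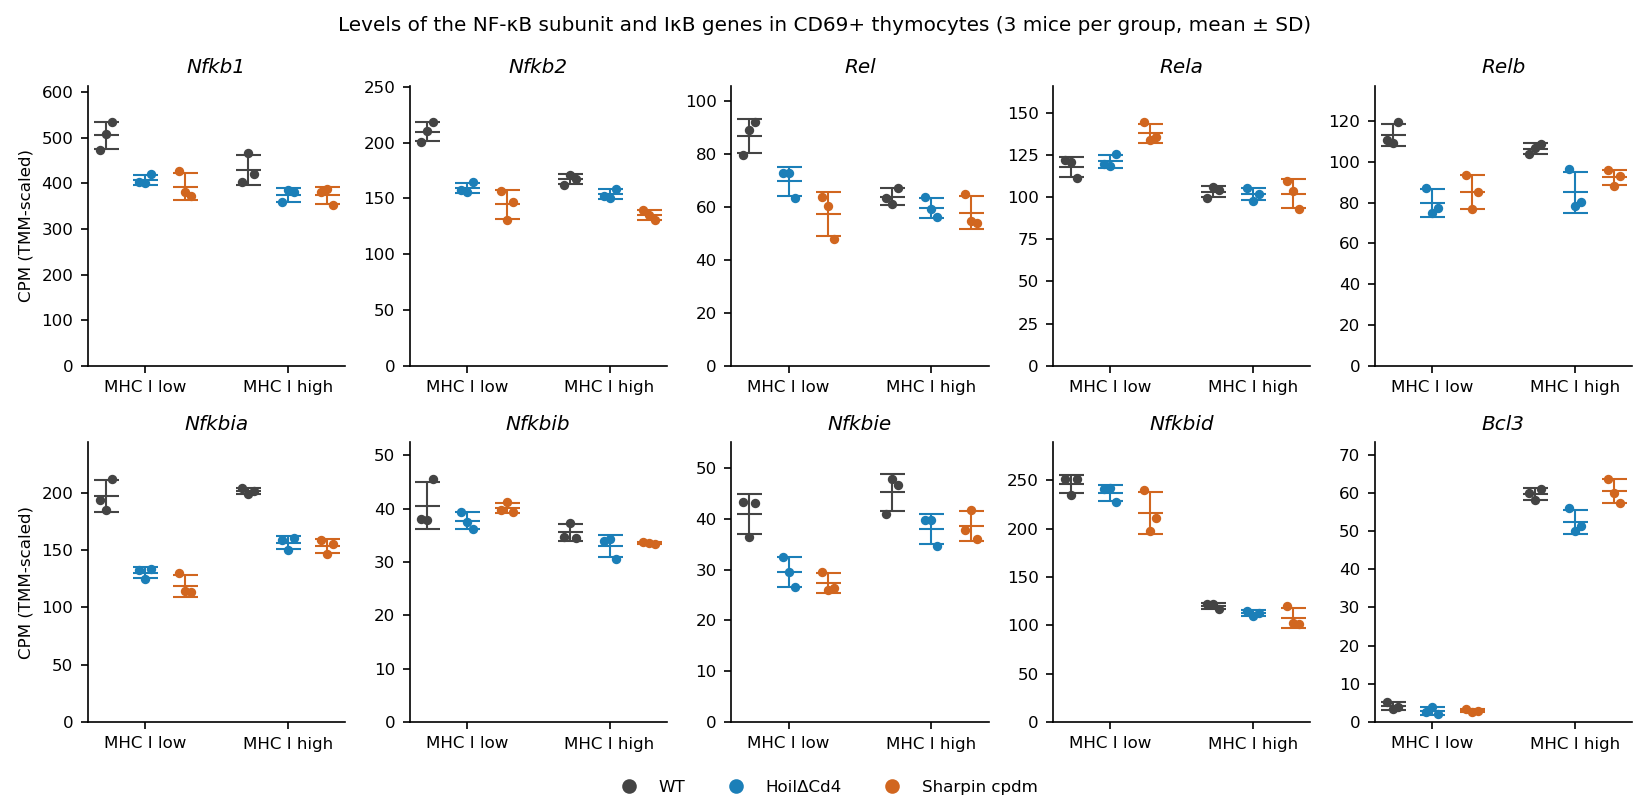
TMM-scaled CPM of each gene in the 6 groups, MHC I low on the left and MHC I high on the right of each panel. Points are mice, bars the mean ± SD of 3 mice, and every axis starts at 0. *Nfkbia*, *Nfkb1*, *Nfkb2* and *Relb* lie below WT in every mutant sample of the same fraction, whereas *Bcl3* is set apart by fraction.

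The comparison with WT asks how the loss of a LUBAC component bears on the transcripts of the pathway it serves. Among MHC I low cells 9 of the 10 values were below 0 in each mutant, where 50.44% (*Hoil*ΔCd4) and 48.44% (*Sharpin* cpdm) of all genes were. The *Nfkbib* value in *Sharpin* cpdm cells was only −0.0003 and crossed 0 in 4 alternatives. In *Hoil*ΔCd4 mice 5 of 10 were called lower (limma, adjusted p under 0.05) where 0.563% of all genes tested were, and in *Sharpin* cpdm mice 8 of 10 were called lower where 6.92% of all genes were. *Rela* alone was called higher, in *Sharpin* cpdm cells, where 5.31% of all genes were. The median log2 fold change of the 10 genes was −0.35 in *Hoil*ΔCd4 and −0.48 in *Sharpin* cpdm mice, against medians of all genes tested of −0.0014 and 0.0084. At the MHC I high stage *Relb* and *Nfkbia* were called lower in *Hoil*ΔCd4 mice (2.81% of all genes were), and *Nfkb1*, *Nfkb2*, *Relb* and *Nfkbia* were called lower in *Sharpin* cpdm mice (4.47% of all genes were). Each of the 10 values was below 0 in MHC I high cells of either mutant, with medians of −0.15 and −0.18. Of all genes 50.07% and 49.1% were below 0 there. In *Sharpin* cpdm cells *Bcl3* at −0.0036 and *Rela* at −0.0185 crossed 0 in 7 and 2 alternatives. Both mutants were set against the same 3 WT mice, so their shared direction is not independent. Without WT mouse 3 or *Hoil*ΔCd4 mouse 3 the MHC I low count of *Hoil*ΔCd4 mice was 3. The MHC I high count of *Hoil*ΔCd4 mice was 1 without WT mouse 3 or *Hoil*ΔCd4 mouse 2, and that of *Sharpin* cpdm mice was 2 without WT mouse 2 or 3 or *Sharpin* cpdm mouse 2 or 3. In bulk samples fewer cells of a type and less RNA per cell cannot be told apart.

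Several markers moved with these groups, and their part in the results was not tested. The 4 markers of Treg cells summed to 804 to 1016 CPM in WT against 951 to 1077 in *Hoil*ΔCd4 and 490 to 558 in *Sharpin* cpdm MHC I low cells, nearly all of it *Ikzf2*. Their sum in MHC I high cells was 523 to 619 CPM in WT, with 440 to 566 for *Hoil*ΔCd4 and 379 to 431 for *Sharpin* cpdm mice. *Il2ra*, the gene of CD25, whose surface protein was gated out, was at 12.3 to 20.5 CPM in WT MHC I low cells, 4.84 to 7.70 in *Hoil*ΔCd4 and 5.35 to 7.06 in *Sharpin* cpdm. It was at 11.9 to 15.7 CPM in WT MHC I high cells, with 6.05 to 6.98 for *Hoil*ΔCd4 and 5.28 to 7.88 for *Sharpin* cpdm, apart from WT in both fractions. *Ctla4* was instead higher in *Sharpin* cpdm MHC I low cells, at 4.30 to 5.14 CPM against 3.71 to 3.99 in WT. Its *Hoil*ΔCd4 range overlapped WT in both fractions, as did its *Sharpin* cpdm range in MHC I high cells. *Foxp3* was at 0.548 to 1.09 CPM in WT MHC I low cells, 0.882 to 1.04 in *Hoil*ΔCd4 and 0.430 to 0.541 in *Sharpin* cpdm. In MHC I high cells *Foxp3* was at 3.58 to 6.95, 2.65 to 3.94 and 3.14 to 3.71 CPM. The 5 markers of mature single-positive cells summed to 628 to 651 CPM in WT against 532 to 583 in *Hoil*ΔCd4 and 750 to 771 in *Sharpin* cpdm MHC I low cells. The 5 markers of pre-selection double-positive cells summed to 409.6 to 442 CPM in WT MHC I low cells, with 452 to 524 for *Hoil*ΔCd4 and 351 to 387 for *Sharpin* cpdm, 3 ranges that did not overlap. For MHC I high cells their sum was 494 to 588 CPM in WT, to 535 to 826 for *Hoil*ΔCd4 and to 565 to 707 for *Sharpin* cpdm mice. The mature markers summed there to 1118 to 1180, 949.7 to 975 and 1083 to 1189 CPM, in the same order. The 3 NK markers summed there to 2.55 to 3.80 CPM in WT, 0.606 to 1.22 for *Hoil*ΔCd4 and 3.69 to 4.23 for *Sharpin* cpdm, and to at most 0.406 CPM in any MHC I low sample. With *Xist* as a covariate, which stands for sex, the counts of called genes were 7 and 9 in MHC I low and 2 and 5 in MHC I high cells for *Hoil*ΔCd4 and *Sharpin* cpdm.

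**Figure D2:**
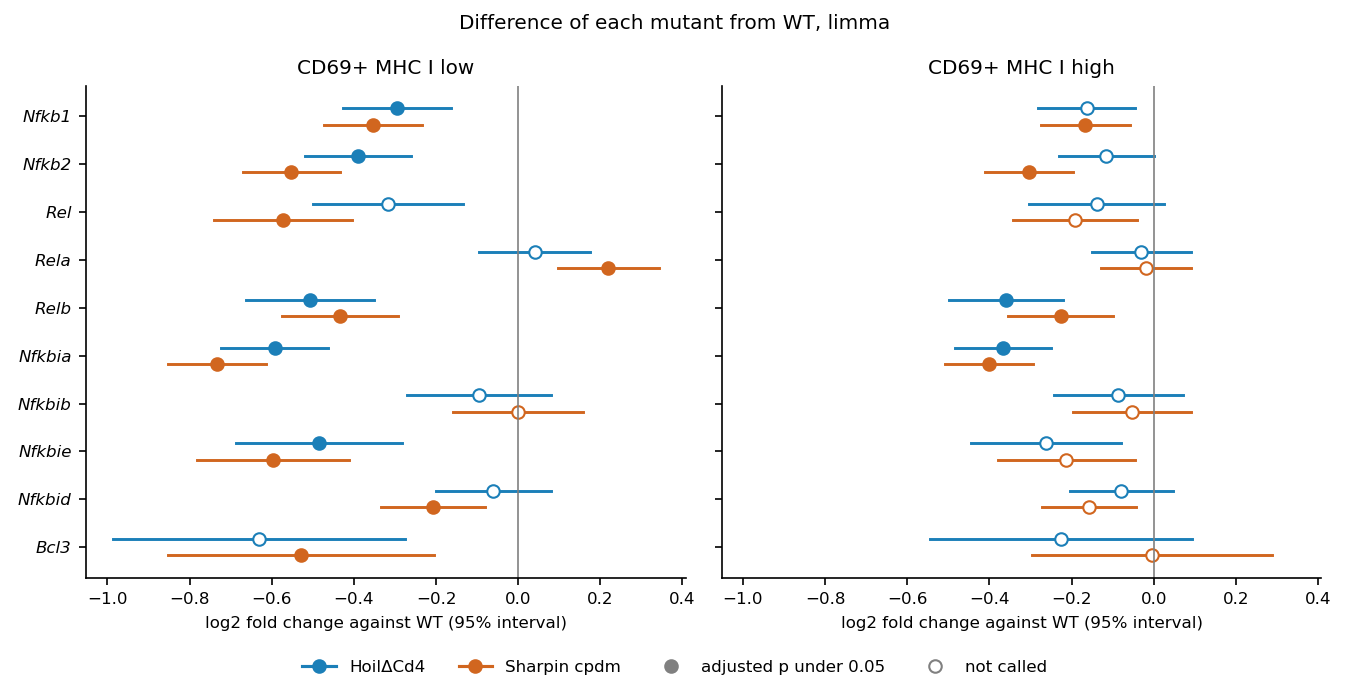
log2 fold change of each gene against WT with its 95% interval, for *Hoil*ΔCd4 (blue) and *Sharpin* cpdm (orange) mice, in MHC I low (left) and MHC I high (right) cells. Filled points passed an adjusted p of 0.05. *Nfkbia* and *Relb* are filled in all 4 comparisons, and *Rela* is the one filled point to the right of 0.

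*Nfkb1* (Entrez Gene 18033, chr3:135584655-135691969 in GRCm38) encodes p105, the precursor of the DNA-binding subunit p50. At the MHC I low stage its levels were 474, 508 and 534 CPM in the 3 WT mice, 403, 401 and 421 in *Hoil*ΔCd4, with 427, 381 and 372 in *Sharpin* cpdm mice. Every mutant sample lay below every WT sample. The log2 fold change was −0.30 ± 0.064 (SE) in *Hoil*ΔCd4 (adjusted p = 0.0136) and −0.35 ± 0.058 in *Sharpin* cpdm mice (adjusted p = 0.000101). For MHC I high cells levels were 403, 467 and 421 CPM in WT against 358, 387 and 381 in *Hoil*ΔCd4, with 381, 387 and 353 in *Sharpin* cpdm mice. These groups did not overlap either, but the differences were slight, −0.16 (95% interval −0.28 to −0.05, adjusted p = 0.0827) and −0.17 ± 0.053 (adjusted p = 0.0453). Without WT mouse 3, *Hoil*ΔCd4 mouse 2 or mouse 3 the call in *Hoil*ΔCd4 MHC I low cells was lost, with adjusted p up to 0.0969. The call in *Sharpin* cpdm MHC I high cells was lost in 8 of its alternatives, among them edgeR, the fit with *Xist* as a covariate (adjusted p = 0.0853) and the fits without WT mouse 2 or 3 or *Sharpin* cpdm mouse 2 or 3, with adjusted p up to 0.185.

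*Nfkb2* (Entrez Gene 18034, chr19:46300994-46312400 in GRCm38) encodes p100, which serves both as an inhibitor and as the precursor of p52. Its levels in MHC I low cells were 201, 211 and 218 CPM in WT against 158, 156 and 164 in *Hoil*ΔCd4, with 157, 131 and 147 in *Sharpin* cpdm mice. The lowest WT mouse stood well above the highest mutant mouse. The fall was 1.31-fold in *Hoil*ΔCd4 (log2 fold change −0.39 ± 0.063, adjusted p = 0.000394) and 1.47-fold in *Sharpin* cpdm mice (−0.55 ± 0.058, adjusted p = 6.99e-08), and both calls held in every alternative run. In MHC I high cells WT mice had 162, 171 and 168 CPM, *Hoil*ΔCd4 mice 152, 151 and 159, and *Sharpin* cpdm mice 140, 135 and 131. The *Sharpin* cpdm value was lower (−0.30 ± 0.052, adjusted p = 0.000219), again in every alternative, and the *Hoil*ΔCd4 value was not called (−0.12, interval −0.23 to 0.0009, adjusted p = 0.23).

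*Relb* (Entrez Gene 19698, chr7:19606217-19629438 in GRCm38), whose product pairs with p52 in the alternative pathway, was called lower in all 4 comparisons. For MHC I low cells WT mice had 111, 109 and 119 CPM, *Hoil*ΔCd4 mice 87.4, 74.8 and 77.1, and *Sharpin* cpdm mice 93.3, 76.9 and 85.1. No mutant sample reached the lowest WT sample there. Levels were 1.42-fold lower in *Hoil*ΔCd4 (−0.51 ± 0.076, adjusted p = 0.000158) and 1.35-fold lower in *Sharpin* cpdm mice (−0.43 ± 0.069, adjusted p = 6.76e-05). Among MHC I high cells the values were 104, 107 and 109 CPM in WT against 96.6, 78.3 and 80.2 in *Hoil*ΔCd4, with 95.8, 88.3 and 93.1 in *Sharpin* cpdm mice. The groups stayed apart, at −0.36 ± 0.068 (adjusted p = 0.00128) and −0.23 ± 0.063 (adjusted p = 0.02). Without WT mouse 3 or *Hoil*ΔCd4 mouse 2 the call in *Hoil*ΔCd4 cells of that fraction was lost (adjusted p up to 0.0725). That in *Sharpin* cpdm cells with high MHC I was lost in 9 alternatives, including edgeR, DESeq2 and the fits without any one WT mouse or without *Sharpin* cpdm mouse 2 or 3 (adjusted p up to 0.308).

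*Rel* (Entrez Gene 19696, chr11:23736847-23770969 in GRCm38) encodes c-Rel, a subunit known for its part in the generation of Treg cells. In MHC I low cells its levels were 79.6, 89.0 and 92.0 CPM in WT against 73.0, 73.0 and 63.5 in *Hoil*ΔCd4, with 63.7, 60.3 and 47.9 in *Sharpin* cpdm mice. No mutant sample reached the lowest WT sample. The difference was called in *Sharpin* cpdm (−0.57 ± 0.082, 1.49-fold lower, adjusted p = 1.70e-05), in every alternative, and not in *Hoil*ΔCd4 mice (−0.32, interval −0.50 to −0.13, adjusted p = 0.0867). At the MHC I high stage the levels of 61.2 to 67.3 CPM in WT mice, 56.2 to 63.7 in *Hoil*ΔCd4 and 53.9 to 65.0 in *Sharpin* cpdm mice overlapped, and neither difference was called (adjusted p = 0.32 and 0.104).

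*Rela* (Entrez Gene 19697, chr19:5637442-5648134 in GRCm38) encodes the transactivating subunit p65 and went another way. Among MHC I low cells it stood at 122, 121 and 111 CPM in WT against 120, 118 and 126 in *Hoil*ΔCd4, with 144, 134 and 136 in *Sharpin* cpdm mice. The *Sharpin* cpdm samples lay above all others of that fraction, whereas *Hoil*ΔCd4 and WT overlapped. Its level was higher in *Sharpin* cpdm mice by 0.22 ± 0.060 on the log2 scale (adjusted p = 0.0146), a call lost without WT mouse 3 or *Sharpin* cpdm mouse 1 (adjusted p up to 0.108). In *Hoil*ΔCd4 mice the value was 0.04 (interval −0.09 to 0.17, adjusted p = 0.887). For MHC I high cells all 9 samples lay between 93.0 and 110 CPM, and the intervals against WT reached from −0.15 to 0.09 in either mutant at most.

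Among the classical inhibitors, *Nfkbia* (Entrez Gene 18035, chr12:55489409-55492647 in GRCm38), which encodes IκBα, had the smallest adjusted p of the 10 genes in every comparison with WT. At the MHC I low stage WT mice had 194, 185 and 212 CPM, *Hoil*ΔCd4 mice 133, 125 and 133, and *Sharpin* cpdm mice 130, 114 and 113. The lowest WT mouse was far above the highest mutant mouse. Levels were 1.51-fold lower in *Hoil*ΔCd4 (−0.59 ± 0.064, adjusted p = 5.90e-07) and 1.66-fold lower in *Sharpin* cpdm mice (−0.73 ± 0.058, adjusted p = 2.14e-10). In MHC I high cells the values were 204, 199 and 202 CPM in WT against 159, 150 and 161 in *Hoil*ΔCd4, with 159, 147 and 156 in *Sharpin* cpdm mice. The separation was complete there too, at −0.37 ± 0.057 (adjusted p = 0.000127) and −0.40 ± 0.053 (adjusted p = 4.37e-06). All 4 calls held in every alternative run.

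*Nfkbie* (Entrez Gene 18037, chr17:45555700-45563169 in GRCm38), the gene of IκBε, was called lower in MHC I low cells of both mutants. Its levels there were 43.3, 36.5 and 43.1 CPM in WT against 32.6, 29.6 and 26.6 in *Hoil*ΔCd4, with 29.6, 26.1 and 26.4 in *Sharpin* cpdm mice, without overlap. The difference was −0.49 ± 0.099 in *Hoil*ΔCd4 (adjusted p = 0.00757), lost without WT mouse 1 or 3 or *Hoil*ΔCd4 mouse 3 (adjusted p up to 0.118), and −0.60 ± 0.091 in *Sharpin* cpdm mice (adjusted p = 3.46e-05), held in every alternative. Among MHC I high cells WT mice had 41.1 to 47.9 CPM, *Hoil*ΔCd4 mice 34.7 to 39.9 and *Sharpin* cpdm mice 36.0 to 41.8. *Hoil*ΔCd4 lay below WT and *Sharpin* cpdm overlapped it. Neither value was called, at −0.26 (interval −0.44 to −0.08, adjusted p = 0.0716) and −0.21 (interval −0.38 to −0.05, adjusted p = 0.104).

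*Nfkbib* (Entrez Gene 18036, chr7:28758251-28766644 in GRCm38), the gene of IκBβ, passed the test against WT in no comparison. For MHC I low cells it had 37.9 to 45.6 CPM in WT against 36.2 to 39.4 in *Hoil*ΔCd4 and 39.3 to 41.2 in *Sharpin* cpdm mice. At the MHC I high stage the ranges were 34.6 to 37.3, 30.5 to 34.3 and 33.3 to 33.7 CPM. The widest 95% interval of the 4 differences reached from −0.27 to 0.08, in *Hoil*ΔCd4 MHC I low cells (adjusted p = 0.744).

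The atypical IκB genes differed more between the fractions than from WT. *Nfkbid* (Entrez Gene 243910, chr7:30421731-30428749 in GRCm38) encodes IκBNS, a nuclear protein known to promote *Foxp3* expression. In MHC I low cells it had 252, 235 and 251 CPM in WT against 241, 242 and 228 in *Hoil*ΔCd4, with 240, 198 and 211 in *Sharpin* cpdm mice. All groups overlapped. The *Sharpin* cpdm value was called lower (−0.21 ± 0.062, adjusted p = 0.0266), but the call was lost in 8 alternatives, edgeR, DESeq2 and the fits without WT mouse 1 or 3 or *Sharpin* cpdm mouse 2 or 3 among them (adjusted p up to 0.283). The other 3 differences from WT were between −0.16 and −0.06, with adjusted p from 0.0797 up.

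*Bcl3* (Entrez Gene 12051, chr7:19808462-19822824 in GRCm38) encodes a coactivator that binds p50 and p52 dimers in the nucleus. Among MHC I low cells it had 5.31, 3.26 and 3.99 CPM in WT against 2.69, 3.89 and 2.04 in *Hoil*ΔCd4, with 3.38, 2.67 and 2.76 in *Sharpin* cpdm mice. The groups overlapped at this low level. The log2 fold change was −0.63 in *Hoil*ΔCd4 (interval −0.99 to −0.28, adjusted p = 0.0767) and −0.53 ± 0.16 in *Sharpin* cpdm mice (adjusted p = 0.0273). The latter call was lost in 9 alternatives, edgeR and DESeq2 included and also without WT mouse 1 or 3 or *Sharpin* cpdm mouse 2 or 3 (adjusted p up to 0.276). For MHC I high cells WT mice had 58.2 to 61.2 CPM, *Hoil*ΔCd4 mice 49.9 to 56.0 and *Sharpin* cpdm mice 57.5 to 63.8. Differences from WT there were −0.23 (interval −0.54 to 0.09) and −0.0036 (interval −0.30 to 0.29).

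The comparison of the fractions of a mouse asks how these transcripts differ between earlier and later positively selected cells. Lineage markers differed between the fractions too. In WT *Cd8a* was at 217.9 to 240 CPM in MHC I low and 745 to 828 CPM in MHC I high cells. *Cd4* was at 819 to 854 and 674.5 to 740 CPM. Maturation and a shift in the mix of CD4 and CD8 cells cannot be told apart here, and neither was tested. In WT mice *Bcl3* rose and *Nfkbid* fell by far the most. In all 3 WT mice *Bcl3* was higher in the MHC I high sample, by 3.82 ± 0.13 on the log2 scale (adjusted p = 1.93e-19). Its rise was 4.22 ± 0.16 for *Hoil*ΔCd4 mice (adjusted p = 4.16e-18) and 4.34 ± 0.14 for *Sharpin* cpdm mice (adjusted p = 3.11e-20). *Nfkbid* dropped by 1.05 ± 0.051 on the log2 scale in WT (adjusted p = 2.42e-17), by 1.07 ± 0.063 in *Hoil*ΔCd4 and by 1.00 ± 0.054 in *Sharpin* cpdm mice. These 6 calls held in every alternative. In WT 6 of the 10 genes were called lower and 1 higher, where 26.8% of all genes were lower and 27.5% higher. The counts in *Hoil*ΔCd4 mice were 4 lower and 3 higher (21.7% and 23.5% of all genes), and in *Sharpin* cpdm mice 3 lower and 3 higher (27.4% and 27.2%). Without the mouse as a block, *Rel* and *Nfkbib* were no longer called in *Hoil*ΔCd4 mice, and 5 genes remained.

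Of the subunit genes, WT cells had less *Nfkb1* (−0.25 ± 0.048, adjusted p = 5.45e-05), *Nfkb2* (−0.33 ± 0.047, adjusted p = 7.29e-07), *Rel* (−0.41 ± 0.067, adjusted p = 7.79e-06) and *Rela* (−0.19 ± 0.049, adjusted p = 0.00165) in the MHC I high fraction. *Relb* was not called in any genotype, with an interval of −0.20 to 0.04 in WT. In *Sharpin* cpdm mice *Rela* fell by 0.43 ± 0.052 on the log2 scale (adjusted p = 2.54e-08), while the intervals of *Nfkb1*, *Nfkb2* and *Rel* included 0. In *Hoil*ΔCd4 mice *Rela* fell by 0.26 ± 0.061 (adjusted p = 0.000695) and *Rel* by 0.23 ± 0.083 (adjusted p = 0.0254). The *Rel* call was lost with edgeR and DESeq2, both fitted without the mouse, with no filter on low counts and with no mouse block. It was also lost without any one *Hoil*ΔCd4 mouse (adjusted p up to 0.167). *Nfkb1* and *Nfkb2* were not called there, at −0.12 (adjusted p = 0.105) and −0.05 (adjusted p = 0.499). The WT call of *Rela* was lost without WT mouse 1 (adjusted p = 0.0863).

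Of the inhibitors, *Nfkbia* and *Nfkbie* were higher in the MHC I high fraction of both mutants, whose MHC I low levels were below WT. *Nfkbia* was higher in MHC I high cells by 0.26 ± 0.059 on the log2 scale in *Hoil*ΔCd4 (adjusted p = 0.000558) and by 0.36 ± 0.050 in *Sharpin* cpdm mice (adjusted p = 3.27e-07), and was not called in WT (0.03, interval −0.07 to 0.13). *Nfkbie* was higher by 0.36 ± 0.092 (adjusted p = 0.00162) and 0.52 ± 0.078 (adjusted p = 1.22e-06), and was not called in WT (0.14, interval −0.01 to 0.29). *Nfkbib* was called lower in each genotype, at −0.21 ± 0.064 in WT (adjusted p = 0.00698), −0.20 ± 0.079 in *Hoil*ΔCd4 (adjusted p = 0.0391) and −0.26 ± 0.067 in *Sharpin* cpdm mice (adjusted p = 0.0015). The WT call was lost by edgeR and DESeq2, both fitted without the mouse, and also without WT mouse 3 (adjusted p up to 0.492). The *Hoil*ΔCd4 call was lost by both tools and without any one *Hoil*ΔCd4 mouse or without *Sharpin* cpdm mouse 1, whose samples enter only the shared spread (adjusted p up to 0.189).

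**Figure D3:**
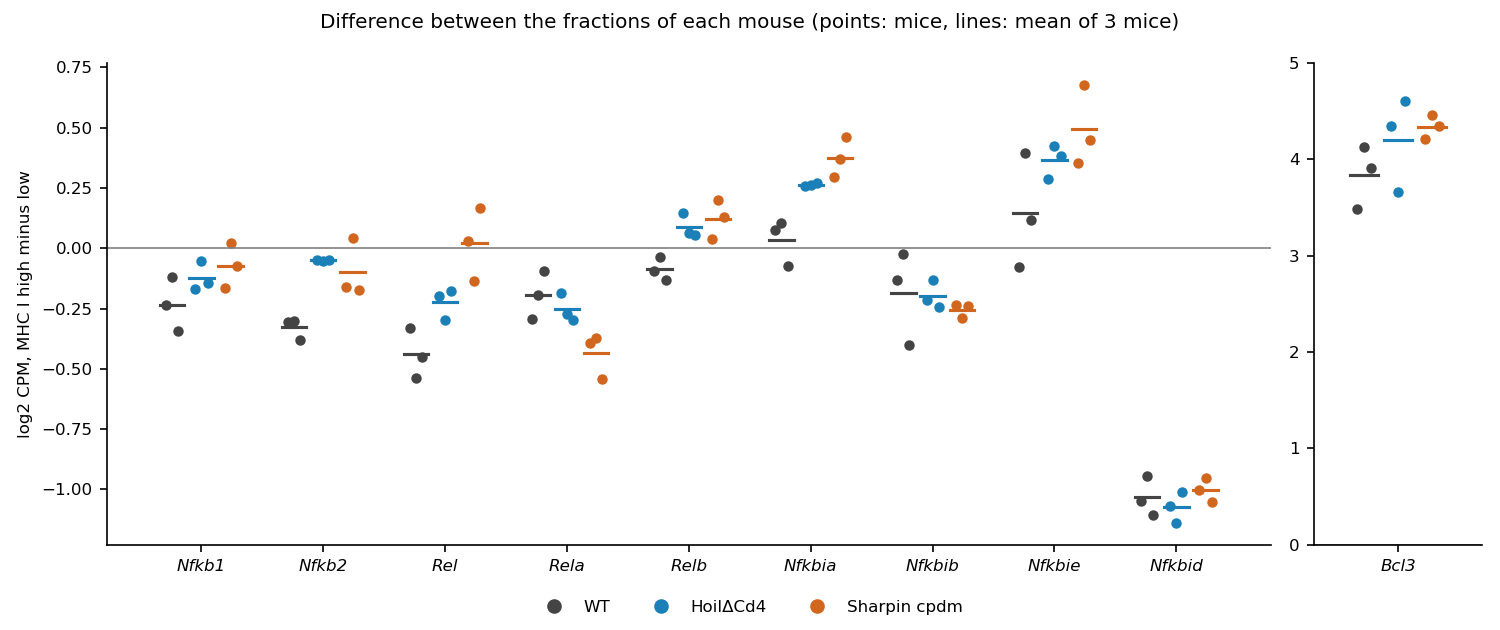
log2 CPM in the MHC I high minus the MHC I low sample of the same mouse, for 9 genes on one axis and for *Bcl3* on a wider axis of its own. Points are mice and lines the mean of 3 mice. *Nfkbid* is near −1 in all 9 mice, and the *Nfkbia* values of the mutants lie above those of WT.

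Whether the step differed between genotypes was tested as the difference of the 2 changes. Against WT, the change in *Sharpin* cpdm mice was called higher for 4 of 10 genes, where 2.2% of all genes were. For *Nfkbia* the mice changed by 0.08, 0.10 and −0.07 in WT and by 0.29, 0.37 and 0.46 in *Sharpin* cpdm on the log2 scale. The ranges were apart, and the difference was 0.33 ± 0.069 (adjusted p = 0.00676). *Nfkb2* changed by −0.31, −0.30 and −0.38 in WT and by −0.16, 0.04 and −0.17 in *Sharpin* cpdm mice, also apart, with a difference of 0.25 ± 0.069 (adjusted p = 0.0408). *Rel* changed by −0.33, −0.54 and −0.45 against 0.03, −0.14 and 0.17, a difference of 0.38 ± 0.097 (adjusted p = 0.0274). *Nfkbie* changed by −0.08, 0.39 and 0.12 against 0.36, 0.68 and 0.45, which overlapped, with a difference of 0.38 ± 0.11 (adjusted p = 0.0452). Without the mouse as a block only the call of *Nfkbia* was left. edgeR and DESeq2, whose fits also left out the mouse, called none (0.234% of all genes) and 1 (1.24%). No call was left without WT mouse 3 or *Sharpin* cpdm mouse 3, and 2 were left without WT mouse 2 or *Sharpin* cpdm mouse 1 or 2. *Nfkb2* lost its call in 15 alternatives, without any one mouse but *Hoil*ΔCd4 mouse 2 among them (adjusted p up to 0.297). *Nfkbie* lost it in 10, among them without WT mouse 1 or 3 or any one *Sharpin* cpdm mouse (adjusted p up to 0.303). *Rel* lost it without WT mouse 2 or 3 or *Sharpin* cpdm mouse 3 (adjusted p up to 0.132 over all alternatives).

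For *Hoil*ΔCd4 against WT, limma called none of the 10 changes, where 0.398% of all genes were called in either direction, and edgeR and DESeq2 called none either (0.00781% and 0.159% of all genes). At an unadjusted p under 0.05, which 10.5% of all genes passed, there were 2, *Nfkb2* at 0.28 (interval 0.12 to 0.43, adjusted p = 0.115) and *Nfkbia* at 0.23 (interval 0.07 to 0.38, adjusted p = 0.225). *Nfkb2* changed by −0.05 in each of the 3 *Hoil*ΔCd4 mice.

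The mutants were also set against each other. At the MHC I low stage limma called none of the 10, where 9.48% of all genes were called in either direction. At an unadjusted p under 0.05, which 23.9% of all genes passed, there were 5. edgeR called 2 of the 10, where it called 11.8% of all genes, and DESeq2 called 1, where it called 13.4%. *Rel* stood at 0.26 in *Hoil*ΔCd4 minus *Sharpin* cpdm mice (interval 0.07 to 0.44, adjusted p = 0.0773), *Rela* stood at −0.18 (interval −0.32 to −0.04, adjusted p = 0.0915) and *Nfkbia* at 0.14 (interval 0.0056 to 0.27, adjusted p = 0.187). *Nfkb2* stood at 0.16 (interval 0.03 to 0.29, adjusted p = 0.117) and *Nfkbid* at 0.15 (interval 0.0036 to 0.29, adjusted p = 0.196). The calls of edgeR were *Rel* and *Rela*, and that of DESeq2 was *Rel*. Without *Sharpin* cpdm mouse 1 limma called *Rel* and *Nfkbid*. In MHC I high cells *Nfkb2* alone was called, higher in *Hoil*ΔCd4 mice by 0.19 ± 0.058 (adjusted p = 0.0429), where 3.71% of all genes were higher. That call was lost in 11 alternatives, edgeR and DESeq2 included and without any mouse but WT mouse 2 and *Sharpin* cpdm mouse 1 (adjusted p up to 0.232).

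The make-up of the transcript pool is given as a description, per kb and with no test. The summed RPKM of *Nfkbia*, *Nfkbib* and *Nfkbie* divided by that of the 5 subunits was 0.516 ± 0.031 (SD, n = 3) in WT MHC I low cells, 0.447 ± 0.0092 in *Hoil*ΔCd4 and 0.427 ± 0.0060 in *Sharpin* cpdm. It was higher in each genotype's MHC I high cells, at 0.619 ± 0.023, 0.556 ± 0.0047 and 0.559 ± 0.023. For MHC I low cells the 5 subunits together had 315 ± 12.2 RPKM in WT against 256 ± 4.10 in *Hoil*ΔCd4 and 251 ± 17.7 in *Sharpin* cpdm mice. *Rela* made up 13.9 ± 1.19% of that sum in WT against 17.5 ± 0.421% in *Hoil*ΔCd4 and 20.3 ± 0.595% in *Sharpin* cpdm mice, and the 3 groups did not overlap. *Nfkb1* had a mean share of 38.0% to 39.0% in these 3 groups. *Nfkbia* made up 76.8 ± 0.38% of the inhibitor sum in WT against 72.3 ± 1.49% in *Hoil*ΔCd4 and 70.2 ± 1.22% in *Sharpin* cpdm mice.

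**Figure D4:**
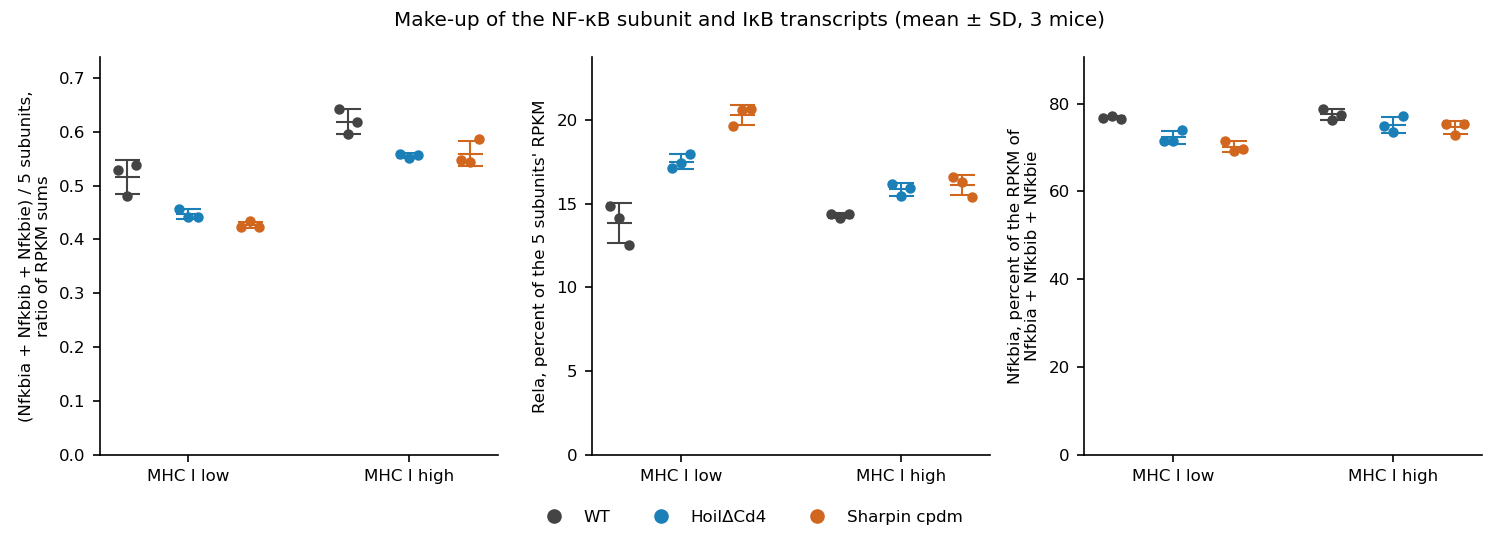
Ratio of the summed RPKM of the classical inhibitors to that of the 5 subunits (left), share of *Rela* among the subunits (middle) and share of *Nfkbia* among the inhibitors (right). Points are mice, bars mean ± SD of 3 mice, and axes start at 0. In MHC I low cells the *Rela* share is lowest in WT and highest in *Sharpin* cpdm mice.

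Across the 18 samples, after the mean of each fraction was subtracted, most of these genes varied together. The samples share mice and genotypes, so the correlations describe these data and carry no p-value. The means of the genotypes were not subtracted, so the differences from WT given above enter these values. Pairs of other genes were not counted for comparison. Of the 45 pairs 36 had a positive Pearson r, and the median was 0.576. The highest were 0.93 for *Nfkb2* with *Nfkbia*, 0.902 for *Nfkb1* with *Nfkbia* and 0.897 for *Nfkb1* with *Nfkb2*. All 9 negative pairs were those of *Rela*, from −0.51 with *Rel* to −0.08 with *Nfkbib*.

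**Figure D5:**
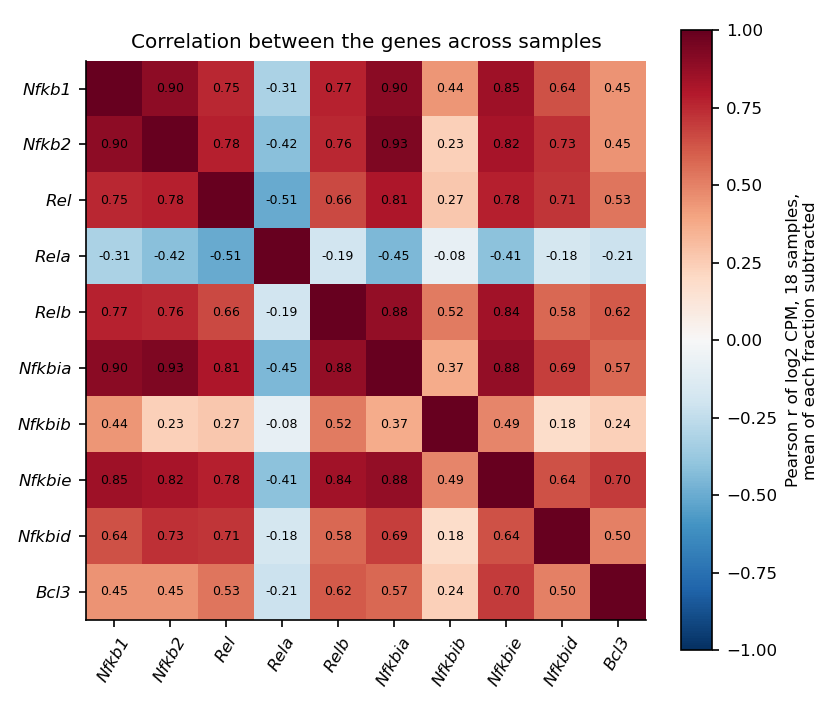
Pearson r of log2 CPM between each pair of the 10 genes over 18 samples, with the mean of each fraction subtracted, from −1 (blue) to 1 (red). The row of *Rela* is negative outside its own cell, and that of *Nfkbib* is pale.

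The genes outside the list whose levels ran closest to a member, by the same measure, were *Birc3*, an inhibitor of apoptosis (r = 0.963), and *Tnfaip3*, the gene of the deubiquitinase A20 (r = 0.958), for *Nfkbia*. *Tnfaip3* (0.924) and *Bcl2l11*, the gene of the death protein BIM (0.914), were closest to *Nfkb1*. For *Relb* they were *Cd274*, which encodes PD-L1 (0.924), and *Gadd45b* (0.92), for *Nfkbie* *Mapk6* (0.913) and *Icam1*, an adhesion molecule (0.906), and for *Nfkb2* the transcription factor gene *Batf* (0.888) and *Pde4d* (0.879). *Rel* had *Fnbp1* (0.94) and *Rest* (0.917), *Nfkbid* had *Khdc4* (0.9) and *Kdm6b* (0.886), and *Rela* had *Fermt3* and *Mbp* (0.889 each). The nearest genes to *Nfkbib* and *Bcl3* were less close, *P3h1* at 0.821 and *Phldb1* at 0.794.

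A further 34 genes of the pathway were listed, kinases, adaptors, negative regulators and other IκB-like genes, and 33 of them were tested. In *Hoil*ΔCd4 mice 1 of the 33 was called lower in MHC I low cells (0.563% of all genes) and 2 in MHC I high cells (2.81%), and none was higher. For *Sharpin* cpdm the early fraction had 4 lower and 3 higher genes, where 6.92% and 5.31% of all genes were. Its late fraction had 2 lower genes and 3 higher ones, where 4.47% and 4.15% of all genes were. *Map3k14*, the gene of NIK, was among the higher ones in both fractions (0.45 ± 0.060, adjusted p = 5.34e-06, and 0.31 ± 0.055, adjusted p = 0.000299). So was *Tnip1* (0.33 ± 0.052, adjusted p = 5.38e-05, and 0.35 ± 0.047, adjusted p = 7.84e-06). Neither was called in *Hoil*ΔCd4 mice, but the 2 genes differed there. Each *Hoil*ΔCd4 sample had more *Map3k14* than any WT sample of its fraction. Its early difference was 0.22 (interval 0.08 to 0.35, adjusted p = 0.119). The late one was 0.17 (interval 0.04 to 0.29, adjusted p = 0.0877). *Tnip1* instead stood at −0.16 (interval −0.27 to −0.04) early and −0.02 (interval −0.12 to 0.09) late. *Tnfaip3*, which restrains IKK, was the one gene called in all 4 comparisons. It had 247 ± 23.1 CPM (SD, n = 3) in WT MHC I low cells, 180 ± 12.7 in *Hoil*ΔCd4 and 166 ± 11.2 in *Sharpin* cpdm, and 152 ± 6.63, 112 ± 4.79 and 122 ± 2.09 CPM in MHC I high cells. Against WT these were −0.45 ± 0.068 (adjusted p = 0.000174) and −0.56 ± 0.062 (adjusted p = 1.67e-07) in MHC I low and −0.43 ± 0.061 (adjusted p = 2.61e-05) and −0.31 ± 0.056 (adjusted p = 0.000322) in MHC I high cells.

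The IKK subunit genes passed the test against WT in neither fraction. *Chuk*, the gene of IKKα, had group means of 119 to 130 CPM, *Ikbkb*, the gene of IKKβ, 221 to 262 CPM, and *Ikbkg*, the gene of the regulatory subunit NEMO, 69.7 to 90.4 CPM. The value furthest from 0 was that of *Ikbkg* in *Hoil*ΔCd4 MHC I low cells, −0.19 (interval −0.33 to −0.05, adjusted p = 0.23). *Nfkbiz*, the gene of the nuclear protein IκBζ, was lower in *Sharpin* cpdm MHC I low cells (113 ± 9.83 against 132 ± 3.19 CPM in WT, −0.23 ± 0.065, adjusted p = 0.0182) and was not called in the other 3 comparisons, with adjusted p from 0.517 to 0.916.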

How the data were processed

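RNA from sorted CD69+ MHC I low and high thymocytes was sequenced as single-end reads. The authors mapped them to mm10 with Rsubread. They assigned reads to genes with featureCounts, using its inbuilt RefSeq annotation, and deposited unnormalized whole-number counts, one table per sample. Versions, strand and multi-mapping settings are not given in the sources used here. Reads of overlapping or antisense genes may therefore not be told apart. The combined table held the same counts (0 cells differed). Of 27179 genes, 25275 matched the RefSeq annotation of GRCm38.p6 by Entrez Gene ID, and the rest held 0.655% of the counts.

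The study's design was followed. A gene was tested if 3 or more samples reached 0.5 CPM. *Xist*, genes of chromosome Y, predicted genes and those lacking an official symbol were dropped. TMM factors, from 0.9873 to 1.015, were computed on the 12798 genes left, and CPM refers to their counts. Log2 CPM with a prior count of 1 was fitted with limma over 6 groups, with sample quality weights and the mouse as a random block (correlation 0.224), abundance trend and robust empirical Bayes. P-values were adjusted over all genes tested (Benjamini-Hochberg). The mouse pairs the fractions, whose deviations from the group means correlated in all 9 mice (r from 0.0703 to 0.256). R 4.3.3, limma 3.58.1, edgeR 4.0.16 and DESeq2 1.42.0 were used, and the tests were tried on simulated counts. RPKM divides CPM by the deposited gene length. No 2 samples of a group agreed within sampling noise (chi-square divided by its degrees of freedom, 5.00 to 15.7). Intervals are at 95%.

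The 10 genes, the pathway and marker lists and the tests were chosen with earlier results of these data known. Named besides the 10 were pathway genes called against WT in both mutants of a fraction, *Nfkbiz*, the 3 IKK subunits, and the 2 genes most like each member. *Map3k14* and *Tnip1* were named afterwards, for being called higher in both *Sharpin* cpdm fractions. Alternatives were edgeR, DESeq2, other scaling, filters, prior count, weights, blocks, samples and covariates, and leaving out each mouse in turn. edgeR and DESeq2 were fitted to the 6 groups without the mouse, so they did not use the pairing of the fractions. Proteins were not analysed here.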

Additional observations from a re-analysis of the deposited data

Results flagged for a closer look

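A test of the difference in change between fractions set 4 genes apart in *Sharpin* cpdm against WT mice, on the log2 scale. The difference was 0.25 for *Nfkb2*, 0.38 for *Rel*, 0.33 for *Nfkbia* and 0.38 for *Nfkbie*, with the adjusted p-values given above (limma). For *Nfkb2*, *Rel* and *Nfkbia* all 3 *Sharpin* cpdm mice lay above all 3 WT mice, and for *Nfkbie* the ranges overlapped. The 4 genes were picked by a test on these same values, so this separation adds no evidence. The share of all genes that separate likewise was not counted. In the other mutant the same differences from WT were 0.28, 0.18, 0.23 and 0.22 and none was called. Of the 4, only *Nfkbia* was still called without the mouse as a block.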

How the results depend on the processing

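Each of 110 results (10 genes, 11 comparisons) was recomputed under up to 21 alternatives. Of the 45 calls, 28 held in every one and 17 were lost in some, 13 of the 65 values not called passed in some, and 0 calls changed direction, while 16 values not called crossed 0. The median log2 fold change of all genes lay within 0.0161 of 0 in every alternative. Counts of called genes that moved by more than 1.5 times were as follows. In *Sharpin* cpdm MHC I high cells 4 became 2 with edgeR, without the filter on low counts and without sample weights. In the mutants against each other, none became 2 with edgeR, 1 with DESeq2 and 2 without weights in MHC I low cells, and 1 became 0 with edgeR, DESeq2, no filter and no weights in MHC I high cells. For the change between fractions in *Sharpin* cpdm mice, 4 became 0 with edgeR and 1 with DESeq2, which left out the mouse, and 1 without the filter, 2 without weights and 1 without the replicate block. With the mouse as a fixed block that count was 5, and with the mouse number as a block, which pairs no mice between genotypes, 6 genes were called in *Hoil*ΔCd4 MHC I low cells, *Bcl3* being the one added. With 1 mouse left out at a time, the counts ranged from 3 to 6 in *Hoil*ΔCd4 MHC I low, 1 to 3 in *Hoil*ΔCd4 MHC I high, 6 to 9 in *Sharpin* cpdm MHC I low, 2 to 6 in *Sharpin* cpdm MHC I high cells, 0 to 2 and 0 to 1 between the mutants in MHC I low and high cells, and 0 to 4 for the *Sharpin* cpdm change. The cause was not tested. Depth limits *Bcl3* in MHC I low cells most, with as few as 30 counts.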
